A study of Mus musculus with 48 samples.

Results

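The 10 genes described here encode receptor tyrosine kinases that fibroblasts are known to carry: Pdgfra, Pdgfrb, Fgfr1, Egfr, Met, Igf1r, Insr, Epha2, Axl and Ddr2. They were chosen by name, and each probe set annotated to 1 of these symbols and to no other gene was taken, which gave 30 of the 45101 probe sets on the array. Of the 30 probe sets, 26 had enough signal to be tested, and every one of the 10 genes kept at least 1. The 4 left out were 1432647_at and 1457563_at of Egfr, 1446303_at of Igf1r and 1450225_at of Insr. The RNA came from mouse fibroblast lines in which Zfp36, the gene of the mRNA-destabilising protein TTP, was disrupted (KO, Zfp36 -/-) or intact (WT, Zfp36 +/+). Both were derived from E14.5 littermates of TTP +/- parents of strain 129/B6, from embryos without head and organs, and the labels point to 1 line per genotype. Cells of both lines spent 16 h in 0.5% serum and 90 min in 10% serum before actinomycin D, which blocks transcription, was given, so every sample had been starved and then stimulated. Samples were collected after 0, 30, 60, 90 and 120 min of actinomycin D, and each combined 3 dishes. The series text gives its dose as 5 ug/ml, but the sample names have 0.5 ug/ml, and which was used is not settled. Each of the 10 groups of line and time held 5 arrays, from experiments on 5 days, except that KO had 4 at 0 min and 4 at 60 min. With apparently 1 line per genotype, a difference between KO and WT cannot be told apart from a difference between these particular lines. The p-values rest on the spread between arrays of the same lines within groups, with every array taken as independent. Arrays of the same experiment were correlated: after group means were removed, their mean r ran from 0.21 (experiment 3) to 0.56 (experiment 5). P-values and errors over the 5 times and of slopes count several arrays per experiment, so they do not measure the spread between experiments.

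Receptor tyrosine kinases span the cell membrane, bind a ligand outside the cell and phosphorylate tyrosines inside it, where adaptor proteins dock and start the MAP kinase and PI3 kinase pathways. In fibroblasts they carry much of the response to serum: platelet-derived growth factors act through Pdgfra and Pdgfrb, fibroblast growth factors through Fgfr1, and insulin-like growth factors through Igf1r. How many receptors a cell can make depends on its mRNA level, which is set by transcription and by decay, and the fall of an mRNA after actinomycin D is a measure of its decay.

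All values are deposited log2 signals of Affymetrix probe sets. The array medians lay between 8.47 and 8.56 and the 5th percentiles between 8.02 and 8.13, so a value near 8 carries little or no signal, and differences and falls that end near it are compressed. Levels of different genes are not set against each other, since probe sets differ in how brightly they bind. Of 13 fibroblast markers, 11 had a mean above the highest 75th percentile of any array, and the mean of the list was 11.00 to 11.24 over KO arrays and 10.91 to 11.14 over WT arrays. Thy1, a further fibroblast marker, was at the floor. None of 9 epithelial and none of 8 endothelial markers (0 of each list) passed that level, while Cd14 of the blood list, Tnnt2 of the muscle list, and Map2 and Tubb3 of the neural list did. Zfp36 itself averaged 9.51 ± 0.16 in KO cells (SD, n = 4) and 9.86 ± 0.16 in WT cells (SD, n = 5) at 0 min. Where its probe set lies relative to the disruption is not known, so this checks no label. The experiments fell into 2 sets: on the component with most of the variance left after group means were removed (33.9%), the arrays of experiments 1 to 3 lay between -19.7 and 2.38 and those of experiments 4 and 5 between 3.98 and 15.5. Both lines are in every experiment, but experiment 5 has no KO array at 0 min and experiment 4 none at 60 min. The levels at 0 and 120 min, their mean over the 5 times and the slopes were also fitted within each set, with values given where a call was lost or gained. In experiments 4 and 5, KO at 0 min is thus 1 array, and its difference from WT is given without a p-value. Fewer cells of a kind and less RNA per cell cannot be told apart in such bulk samples.

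The lines carried different amounts of 8 of the 10 receptor mRNAs when the 5 times were averaged. Pdgfra, Epha2 and Axl were higher in KO, and Fgfr1, Igf1r, Pdgfrb, Ddr2 and Egfr were lower (limma, Benjamini-Hochberg adjusted p under 0.05 over 27500 probe sets). The share of all 13018 genes called higher in KO was 30.4% and the share called lower was 26.4%, so the 3 of 10 receptors above WT lie near the background, and the 5 of 10 below it come from a list of only 10. Met and Insr did not pass the test. The sizes ran from 2.46-fold for Pdgfra to 0.577-fold for Fgfr1, each taken from the probe set of that gene with the highest mean over all arrays.

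**Figure D1:**
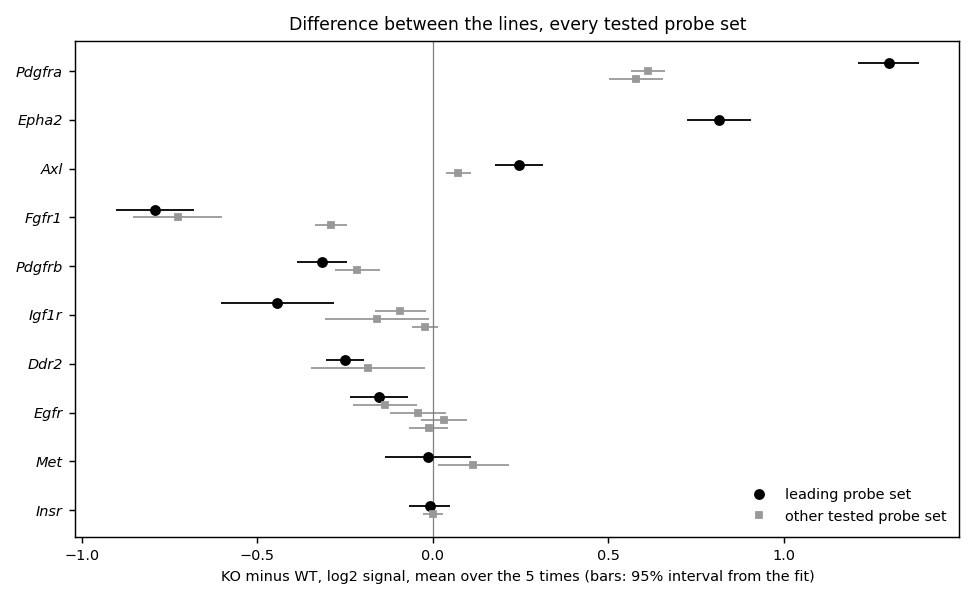
KO minus WT difference of log2 signal, averaged over the 5 times, for every tested probe set of the 10 receptor genes, with 95% intervals; black points are leading probe sets and grey squares the others. Of the leading probe sets, Pdgfra at 1.30 and Epha2 at 0.82 lie farthest above 0 and Fgfr1 at -0.79 farthest below it, while the intervals of Met and Insr include 0.

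Pdgfra, the receptor for PDGF-A and several other platelet-derived growth factors and a marker of mesenchymal cells, lies on mouse chromosome 5 from 75151322 to 75198206 (GRCm38.p6). At 0 min its log2 signal was 10.44, 10.41, 10.57 and 10.31 in the KO arrays, against 9.22, 9.08, 9.01, 9.37 and 9.60 in the WT arrays. At 120 min it was 10.11, 10.15, 10.10, 10.13 and 10.17 in KO, against 8.55, 8.56, 8.62, 8.78 and 8.87 in WT. Every KO array lay above every WT array at all 5 times, and the WT arrays at 120 min had come down to about the array median. The difference was 1.18 ± 0.099 at 0 min (SE; 2.26-fold, limma adjusted p = 3.65e-13) and 1.46 ± 0.094 at 120 min (2.74-fold, adjusted p = 4.78e-17). Averaged over the times it was 1.30 ± 0.043 (adjusted p = 1.39e-28) and it was above 0 in 5 of 5 experiments, where it ran from 1.16 to 1.55. The gene's other probe sets gave smaller differences in the same direction, 0.61 ± 0.024 for 1421916_at (adjusted p = 1.77e-25) and 0.58 ± 0.038 for 1438946_at (adjusted p = 1.99e-17). After a background was subtracted from the linear signals, with an offset of 32, the leading probe set's difference was 1.98. With the mean of the 3 probe sets the difference was 0.83. The direction was the same under these settings, while the size ranged widely.

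Pdgfrb, the receptor for PDGF-B, lies on chromosome 18 from 61045127 to 61085067 and differed the other way. At 0 min the KO arrays lay between 10.36 and 10.66 and the WT arrays between 10.69 and 10.88. KO lay below every WT array from 0 to 90 min, and the lines overlapped at 120 min, where KO ranged from 9.93 to 10.32 and WT from 10.21 to 10.58. The difference over the 5 times was -0.32 ± 0.035 (0.804-fold, limma adjusted p = 1.85e-10), and it was below 0 in 5 of 5 experiments, between -0.48 and -0.23. The second probe set, 1417148_at, gave -0.22 ± 0.032 (adjusted p = 1.20e-07). The receptors of the platelet-derived growth factors thus differed between the lines in opposite directions on every one of their 5 tested probe sets. At single times the call was less firm: at 0 min the Pdgfrb difference was -0.26 (adjusted p = 0.0149), and it was no longer called without replicate 2 (adjusted p = 0.0797) or without replicate 4 (adjusted p = 0.0585). Experiments 1 to 3 alone gave -0.24 at 0 min (adjusted p = 0.120) and -0.23 at 120 min (adjusted p = 0.119), neither of them called.

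Fgfr1, the main fibroblast growth factor receptor of mesenchymal cells, lies on chromosome 8 from 25518759 to 25575718. At 0 min it read 9.49, 9.39, 8.93 and 9.65 in the KO arrays, against 10.15, 9.80, 10.27, 10.05 and 10.23 in the WT arrays. At 120 min it read 9.79, 9.52, 9.55, 9.82 and 9.53 in KO, against 10.24, 10.56, 10.67, 10.25 and 10.12 in WT. Every KO array lay below every WT array at each of the 5 times. The difference was -0.73 ± 0.13 at 0 min (SE; 0.601-fold, limma adjusted p = 1.29e-05) and -0.79 ± 0.055 over the 5 times (0.577-fold, adjusted p = 8.78e-17). Fitted on experiments 4 and 5 alone, Fgfr1 differed by -0.53 (adjusted p = 1.53e-07), and on experiments 1 to 3 alone by -0.95, and it was below 0 in 5 of 5 experiments. The other probe sets gave -0.73 ± 0.062 for 1425911_a_at and -0.29 ± 0.023 for 1436551_at.

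Epha2, an Eph receptor that binds ephrin-A ligands on neighbouring cells, lies on chromosome 4 from 141301221 to 141329384 and has a single probe set, so no second probe set checks it. At 0 min it read 10.92, 10.94, 10.69 and 10.72 in the KO arrays, against 10.26, 10.57, 10.23, 10.35 and 10.28 in the WT arrays. At 120 min it read 10.71, 10.74, 10.54, 10.68 and 10.45 in KO, against 9.61, 9.64, 9.72, 9.43 and 9.55 in WT. KO lay above every WT array at all times, and the gap widened: the difference was 0.48 at 0 min, 0.71 at 30 min, 0.85 at 60 min, 1.00 at 90 min and 1.03 at 120 min. At 0 min that is 1.39-fold (limma adjusted p = 0.000349) and at 120 min 2.04-fold (adjusted p = 1.11e-11). Experiments 4 and 5 alone, with a single KO array at 0 min, gave a difference of 0.41 at that time. Over the 5 times the difference was 0.82 ± 0.045 (SE; 1.76-fold, adjusted p = 2.72e-20) and lay between 0.66 and 0.97 in the 5 experiments.

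The start regions of Epha2 and Pdgfra, the receptors with the largest differences above WT, are shown as the regions around a transcription start. Each window runs from 250 bases before to 50 bases after the start site used in the RefSeq window table (GRCm38.p6), on the + strand, at chr4:141300971-141301270 for Epha2 and chr5:75152001-75152300 for Pdgfra. Such windows were held for 7 of the 10 receptors, all but Pdgfrb, Fgfr1 and Insr. For Epha2, Egfr and Igf1r that site is the outer end of the gene's RefSeq span, whereas for Pdgfra it lies 929 bases inside the span, for Met 608, for Axl 191 and for Ddr2 21892, so the windows of these 4 genes leave out a start farther out. Capitals mark matches, on either strand, to any of 5 motifs: the cAMP response element TGACGTCA, the AP-1 site TGANTCA, the GC box GGGCGG, the TATA box TATAAA and the CArG box that serum response factor binds.
Epha2: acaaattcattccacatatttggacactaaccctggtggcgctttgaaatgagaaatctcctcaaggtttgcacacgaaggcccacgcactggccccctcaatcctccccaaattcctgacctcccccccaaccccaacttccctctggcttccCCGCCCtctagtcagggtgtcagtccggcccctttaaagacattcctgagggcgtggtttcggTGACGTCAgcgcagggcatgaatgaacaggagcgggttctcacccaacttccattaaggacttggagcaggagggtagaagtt
Pdgfra: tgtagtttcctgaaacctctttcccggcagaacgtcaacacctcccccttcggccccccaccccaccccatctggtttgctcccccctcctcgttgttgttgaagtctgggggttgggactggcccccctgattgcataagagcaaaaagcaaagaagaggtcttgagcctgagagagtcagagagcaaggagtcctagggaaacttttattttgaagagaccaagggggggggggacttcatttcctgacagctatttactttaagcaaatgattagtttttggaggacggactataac
The Epha2 window holds a cAMP response element that begins at position -33 relative to the start site of the window. It also holds a GC box, read on the other strand, that begins at position -96. The Pdgfra window holds no match. Among all 32851 windows of this length in the table, 1.79% hold the cAMP response element, 7.81% the AP-1 site, 35.7% the GC box, 13.6% the TATA box and 1.63% the CArG box. Among the other receptors, Met had the AP-1 site, Ddr2 the TATA box, and Axl, Egfr, Igf1r and Met the GC box. A match is a description of these letters and does not show that a factor binds.

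Axl, the receptor for Gas6 and a member of the TAM family, lies on chromosome 7 from 25756500 to 25788924. Its difference was smaller: at 0 min the KO arrays lay between 10.63 and 10.81 and the WT arrays between 10.26 and 10.76, and the lines overlapped. At 30 min and at 90 min every KO array lay above every WT array. Over the 5 times the difference was 0.25 ± 0.034 (SE; 1.19-fold, limma adjusted p = 3.22e-08) and above 0 in 5 of 5 experiments, between 0.11 and 0.31. The second probe set, 1438621_x_at, which lies near the array median, gave 0.072 (adjusted p = 0.000584). At 0 min alone the difference of the leading probe set was 0.22 (adjusted p = 0.0294), and with any of replicates 2, 3, 4 or 5 left out its adjusted p ran up to 0.116 and it was not called. Nor was it called after quantile normalization (0.21, adjusted p = 0.0734) or in experiments 1 to 3 alone (adjusted p = 0.228). Experiments 4 and 5, with 1 KO array at 0 min, gave 0.37.

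Ddr2, a receptor whose ligand is fibrillar collagen, lies on chromosome 1 from 169972307 to 170110836. At 0 min the KO arrays lay between 9.98 and 10.13 and the WT arrays between 10.26 and 10.36. At 60 min and at 90 min too every KO array lay below every WT array. The difference over the 5 times was -0.25 ± 0.027 (SE; 0.840-fold, limma adjusted p = 4.57e-11) and below 0 in 5 of 5 experiments. The second probe set, 1422738_at, gave -0.18 ± 0.080 (adjusted p = 0.0492). At 0 min the difference was -0.26 (adjusted p = 0.00115), and with the mean of both probe sets it was -0.15 (adjusted p = 0.36).

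Igf1r and Insr belong to the insulin receptor family, which takes up signals of growth and nutrition. Igf1r, on chromosome 7 from 67952257 to 68233668, scattered widely: at 0 min KO ranged from 8.92 to 9.73 and WT from 9.21 to 9.76, and only at 90 min did the lines separate, with KO from 8.94 to 9.46 and WT from 9.57 to 10.06. Over the 5 times its difference was -0.44 ± 0.080 (SE; 0.736-fold, limma adjusted p = 6.95e-06), and it was below 0 in 5 of 5 experiments. Its other tested probe sets differed less, by -0.09 for 1426565_at (adjusted p = 0.0276), -0.16 for 1428967_at (adjusted p = 0.0639) and -0.02 for 1452108_at (adjusted p = 0.304), and the mean of the 4 gave -0.18 (adjusted p = 0.000589). Insr, on chromosome 8 from 3150922 to 3279649, was weak, with group means from 8.70 to 8.89 in KO and from 8.70 to 8.90 in WT. Its difference over the 5 times was -0.0092 with a 95% interval from -0.068 to 0.049, or 0.954-fold to 1.03-fold. Within experiments 4 and 5 it was -0.14 (adjusted p = 0.000869), against 0.065 in experiments 1 to 3. At 0 min experiments 4 and 5, with 1 KO array, gave -0.52 for Igf1r and -0.27 for Insr, where experiments 1 to 3 gave 0.019 and 0.12.

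Egfr, the receptor for epidermal growth factor and for Ereg, lies on chromosome 11 from 16752203 to 16913907. At 0 min it read 9.73, 9.62, 9.46 and 9.12 in the KO arrays, against 9.59, 9.71, 9.62, 9.64 and 9.76 in the WT arrays. At 120 min it read 9.09, 9.13, 9.06, 8.91 and 9.01 in KO, against 8.73, 8.91, 8.80, 9.13 and 9.26 in WT. The lines overlapped at both times, and at 60 min and 90 min every KO array lay below every WT array. The difference over the 5 times was -0.15 ± 0.041 (SE; 0.899-fold, limma adjusted p = 0.00132), but it lay below 0 in only 3 of 5 experiments. Experiments 4 and 5 gave -0.40 (adjusted p = 3.74e-08), while experiments 1 to 3 gave -0.021 (adjusted p = 0.663), and without replicate 4 it was -0.092 (adjusted p = 0.0565). At 0 min experiments 4 and 5, with 1 KO array, gave -0.58 and experiments 1 to 3 gave -0.037. At 120 min the sets of experiments lay on opposite sides of 0, at 0.28 (adjusted p = 0.0123) for experiments 1 to 3 and at -0.24 (adjusted p = 0.0166) for experiments 4 and 5. The call for Egfr thus rests on experiments 4 and 5. Of its other 4 tested probe sets, 1435888_at was also lower in KO (-0.14, adjusted p = 0.00883) and the remaining 3 did not pass.

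Met, the receptor for hepatocyte growth factor, lies on chromosome 6 from 17463349 to 17573980. The lines overlapped at all 5 times; at 0 min KO ranged from 10.35 to 10.56 and WT from 10.26 to 10.82. The difference over the 5 times was -0.014, with a 95% interval from -0.14 to 0.11, or 0.910-fold to 1.08-fold (limma adjusted p = 0.867). Its level followed the experiments: in WT at 0 min the arrays of experiments 4 and 5 read 10.80 and 10.82 and those of experiments 1 to 3 read 10.39, 10.39 and 10.26. At 0 min experiments 4 and 5, with 1 KO array, gave a difference of -0.25 for Met, where experiments 1 to 3 gave 0.035. The second probe set, 1422990_at, gave 0.11 ± 0.050 over the 5 times (SE; adjusted p = 0.0503) and had a slope after actinomycin D of 0.13 per hour in KO (adjusted p = 0.0365) and -0.052 in WT (adjusted p = 0.427).

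**Figure D2:**
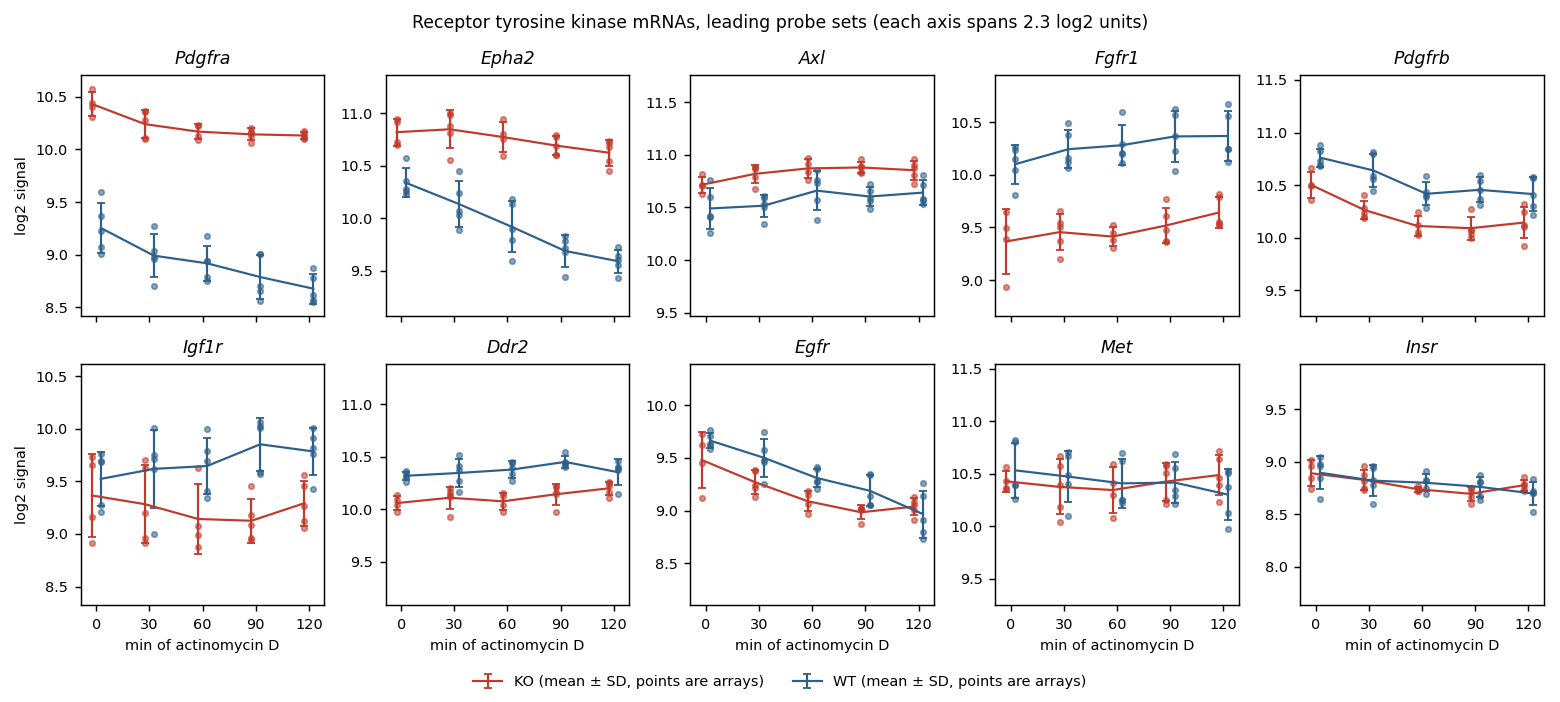
Log2 signal of the leading probe set of each receptor gene at 0 to 120 min of actinomycin D, 1 point per array, with lines through the group means of KO and WT and bars of 1 SD. Pdgfra and Epha2 run above WT in KO at every time, Fgfr1 runs below, and the Epha2 lines draw apart from a difference of 0.48 at 0 min to 1.03 at 120 min.

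At single times, 3 receptors were higher in KO at each of the 5 times, and they were Pdgfra, Epha2 and Axl each time. The background for genes higher in KO was 16% at 0 min, 17% at 30 min, 13% at 60 min, 15.9% at 90 min and 22% at 120 min, when 7 of 10 receptors and 36.5% of all genes differed in either direction. Lower in KO were 3 receptors at 0 min (Fgfr1, Pdgfrb and Ddr2), against a background of 13%, and these stayed lower at the other times. At the other times 4 receptors were lower, with Egfr added at 30 min (background 13.4%) and Igf1r at 60 min (14.4%), 90 min (14.6%) and 120 min (1892 of 13018 genes). Of the calls at 120 min, that of Igf1r (-0.49, limma adjusted p = 0.0273) was lost without replicate 2, 4 or 5 and in experiments 1 to 3 alone (adjusted p = 0.259), that of Ddr2 (-0.15, adjusted p = 0.0405) without replicate 2, 3, 4 or 5 and within either set of experiments, and that of Pdgfrb (-0.27, adjusted p = 0.00562) without replicate 2, so that 1 to 4 receptors were lower there. Processing settings mattered too. Ddr2 lost its call with array medians centred (adjusted p = 0.113), background subtracted (0.0709), the mean of its probe sets (0.284) or no filter (0.0562). Igf1r lost its call with the mean of its probe sets (-0.18, adjusted p = 0.137). The call of Axl at 120 min (0.21, adjusted p = 0.024) was lost without replicate 2 (adjusted p = 0.134), 3 (0.0873) or 4 (0.0657), after quantile normalization (0.114) and in experiments 4 and 5 alone (0.0794). In the order of the 10 group means, the 5 KO means of Pdgfra, Epha2 and Axl all lay above the 5 WT means, and those of Fgfr1, Ddr2 and Igf1r all lay below. The step between the lines was larger than the SD of both neighbouring groups for Pdgfra (KO at 120 min above WT at 0 min), Epha2 (the same pair of groups), Fgfr1 and Ddr2 (KO at 120 min below WT at 0 min). Within a line, such steps separated only Pdgfra at 0 min from 30 min in either line and Axl at 30 min from 0 min in KO, while other neighbours did not differ beyond their spread. What share of all genes separates between the lines in these ways, by group means or by arrays, is not given here. Over the 5 times, 56.8% of all genes differed between the lines in either direction.

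The next question was how each receptor mRNA moved once transcription was blocked. Slopes were fitted as straight lines over the 5 times, in log2 signal per hour. As the array medians lay close together, values were taken to be relative to the average of the array. A slope above 0 may then be a fall smaller than the average. In KO, 4 of 10 receptors fell (Egfr, Pdgfrb, Pdgfra and Epha2), against 14.6% of all genes. In WT, 5 of 10 fell, the same 4 and Insr, against 17.8% of all genes. Read as the difference between 120 and 0 min, 3 of 10 fell in KO (Egfr, Pdgfra and Pdgfrb), against 12.3% of all genes, and 5 of 10 fell in WT, against 16.4%. Fgfr1 had a slope above 0 in WT (1 of 10, background 15%). In KO limma called 0 of 10 receptors with a slope above 0 (background 15.7%), and 2 had an unadjusted p under 0.05, Fgfr1 and Ddr2.

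Egfr had the steepest fall of the 10 in KO, at -0.23 ± 0.042 per hour (SE; limma adjusted p = 2.67e-05), with -0.34 ± 0.040 in WT (adjusted p = 9.59e-10). From 0 to 120 min it fell by 0.44 in KO and by 0.70 in WT. Its probe sets 1435888_at and 1451530_at fell in both lines, whereas 1454313_at and 1460420_a_at passed the test in neither. The last 2 had means of 8.57 to 8.68, near the array median, but so had 1451530_at, with a mean of 8.51. Pdgfrb fell in both lines, by slopes of -0.17 ± 0.040 in KO (adjusted p = 0.000912) and -0.18 ± 0.038 in WT (adjusted p = 0.00028). Its slope difference was 0.0065, with a 95% interval from -0.10 to 0.12. Without the arrays at 0 min the fall of Pdgfrb was called in neither line, at -0.079 in KO (adjusted p = 0.373) and -0.13 in WT (adjusted p = 0.0949). Insr had a slope of -0.069 in KO (adjusted p = 0.074), which did not pass, and of -0.091 in WT (adjusted p = 0.0102). The WT call was lost without replicate 1 (adjusted p = 0.0629) or replicate 2 (adjusted p = 0.0564) and in experiments 1 to 3 alone (adjusted p = 0.0833). It was also lost with the mean of the gene's probe sets (-0.032, adjusted p = 0.079) and without the arrays at 0 min (-0.081, adjusted p = 0.128). The other tested probe set, 1421380_at, had WT means of 8.47 at 0 min and 8.51 at 120 min.

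Pdgfra fell at -0.13 ± 0.043 per hour in KO (SE; limma adjusted p = 0.0156) and at -0.27 ± 0.041 in WT (adjusted p = 5.12e-07). The slope difference of 0.14 ± 0.060 did not pass (adjusted p = 0.461). Its probe sets disagreed in KO: 1421916_at fell by 0.071 (adjusted p = 0.0227), while 1438946_at rose by 0.14 (adjusted p = 0.00275). They went apart in WT too. There 1421916_at ranged from 8.83 to 8.924 at 0 min and from 8.588 to 8.689 at 120 min. In contrast, 1438946_at ranged from 8.877 to 9.248 at 0 min and from 8.975 to 9.375 at 120 min. The WT fall kept its call under the other settings, with slopes from -0.54 to -0.11. With the mean of the 3 probe sets the KO slope was -0.021 (adjusted p = 0.654), and without the arrays at 0 min the slope of the leading probe set was -0.071 (adjusted p = 0.436). Experiments 4 and 5 alone gave -0.10 in KO (adjusted p = 0.156). The KO fall was also not called without replicate 1 (adjusted p = 0.0573) or 3 (0.0886) or after background subtraction (0.138).

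Epha2 was the one receptor whose slope difference passed the test. It fell at -0.11 ± 0.044 per hour in KO (SE; limma adjusted p = 0.0475) and at -0.39 ± 0.042 in WT (adjusted p = 8.72e-11). Between 0 and 120 min the WT level dropped by 0.75 (0.596-fold, adjusted p = 4.49e-08), and in KO the change of -0.20 did not pass (adjusted p = 0.184). The fall in KO also lost its call without any of replicates 1, 2, 3 or 5, where the adjusted p ran from 0.0878 to 0.15, and in experiments 4 and 5 alone (-0.070, adjusted p = 0.448). Nor was the KO fall called with array medians centred (adjusted p = 0.0658), after background subtraction (0.0725), without the filter (0.0692) or without the arrays at 0 min (0.0964). The slope difference was 0.28 ± 0.060 per hour (adjusted p = 0.00766), 1 of 10 receptors against 1.08% of all genes with a slope difference above 0 and 0.323% below. It was above 0 in 5 of 5 experiments, between 0.17 and 0.41, and it passed with experiments 1 to 3 alone (0.26, adjusted p = 0.038) and with experiments 4 and 5 alone (0.34, adjusted p = 0.0424). The call was lost without replicate 4 (0.24, adjusted p = 0.0634), after quantile normalization (0.24, adjusted p = 0.0564) and without the arrays at 0 min (0.22, adjusted p = 0.589).

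**Figure D3:**
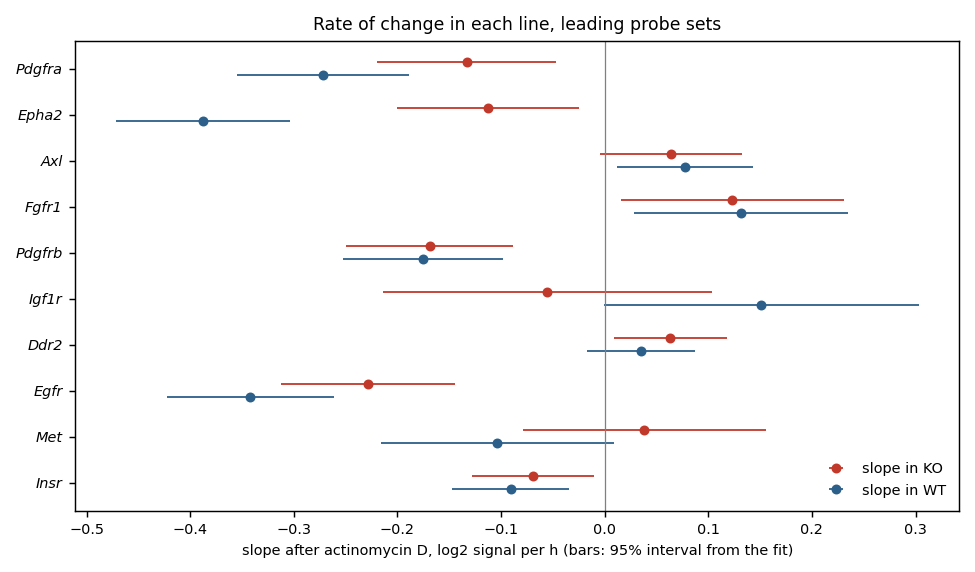
Slopes of log2 signal per hour of actinomycin D for the leading probe set of each receptor gene in KO and in WT, with 95% intervals. Egfr lies lowest in KO at -0.23 and Epha2 lies lowest in WT at -0.39, where Epha2 in KO lies at -0.11.

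Fgfr1, Met, Igf1r, Axl and Ddr2 showed no fall past the threshold in either line. Fgfr1 had slopes of 0.12 in KO (adjusted p = 0.0827) and 0.13 in WT (limma adjusted p = 0.0471), the second of which was lost under centring of the array medians (adjusted p = 0.0616) and without replicate 2 (0.079, adjusted p = 0.375). Experiments 4 and 5 alone gave 0.015 in WT (adjusted p = 0.802). Its probe set 1436551_at had 0.052 in KO (adjusted p = 0.0905) and 0.093 in WT (adjusted p = 0.000696). Met had 0.038 in KO and -0.10 in WT (adjusted p = 0.168), and Igf1r had -0.055 in KO and 0.15 in WT (adjusted p = 0.134). Axl had 0.064 in KO and 0.078 in WT, and Ddr2 had 0.063 in KO and 0.035 in WT. With the experiment as a replicate block, Axl passed in KO (0.073, adjusted p = 0.0294) and in WT (0.078, adjusted p = 0.0136), Met passed in WT (-0.10, adjusted p = 0.00673) and Insr passed in KO (-0.075, adjusted p = 0.021). In experiments 4 and 5 alone, Met passed in WT (-0.13, adjusted p = 0.000474), Axl in WT (0.12, adjusted p = 0.0133) and Ddr2 in KO (0.11, adjusted p = 0.0153). The widest interval of a slope difference was that of Igf1r, -0.21 with bounds of -0.43 and 0.014 (adjusted p = 0.618). After 30 min of actinomycin D, 0 of 10 receptors had changed past the threshold in either line by limma, where 0.968% of all genes had changed in KO and 1.58% in WT. An unadjusted p under 0.05 was reached in KO by Pdgfrb (-0.24 from 0 to 30 min) and Egfr (-0.21) and in WT by Pdgfra (-0.26) and Epha2 (-0.20).

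**Figure D4:**
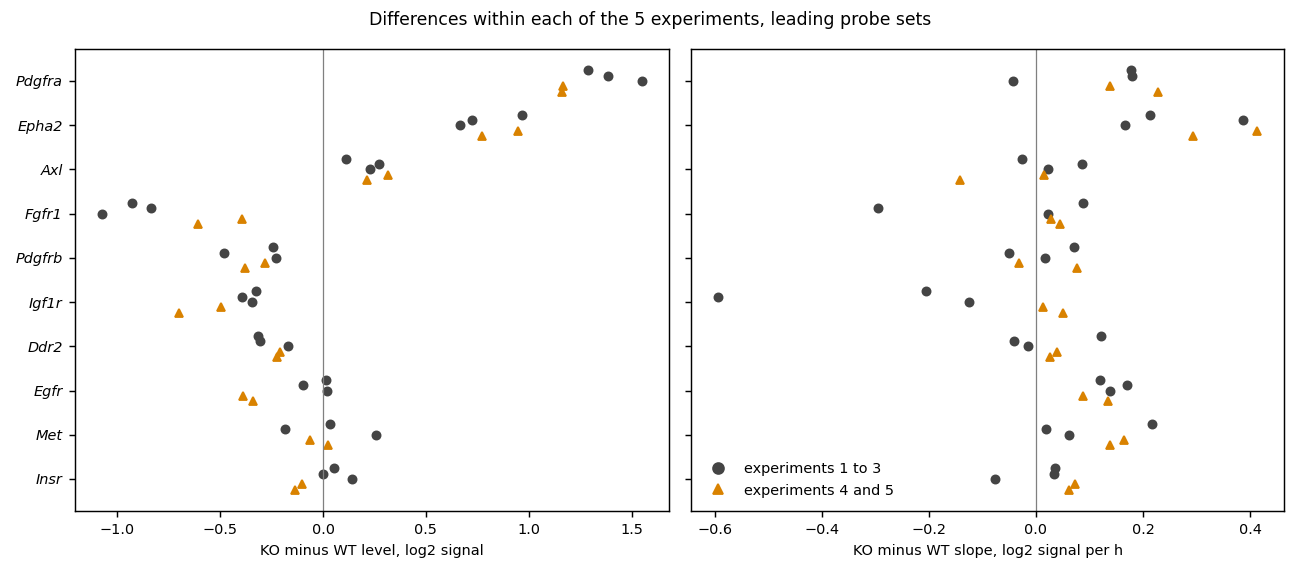
KO minus WT difference of log2 signal for each receptor gene in each of the 5 experiments, averaged over the times measured in both lines (left), and KO minus WT slope in log2 signal per hour (right). On the left all 5 points lie above 0 for Pdgfra, Epha2 and Axl and below 0 for Fgfr1, Pdgfrb, Igf1r and Ddr2, while Egfr, Met and Insr lie on both sides; on the right the 5 points of Epha2 run from 0.17 to 0.41.

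The genes whose 10 group means most resembled those of each receptor were found by Pearson's r over the 10 groups. All tested genes other than the 10 receptors were candidates. The groups share lines and experiments, so r is a description. For Pdgfra they were Dnajb9 (r = 0.998) and Osbpl3 (r = 0.996), for Epha2 Cfap20 (0.992) and Lif (0.991), and for Fgfr1 Gas2 (0.999) and Rnase4 (0.998). Egfr was closest to Dnajb4 (0.992) and Ranbp6 (0.991), Pdgfrb to Ier5l (0.986) and Alkbh1 (0.983), and Igf1r to Crim1 (0.984) and Fam168a (0.983). Ddr2 came closest to Agps and Ppp2r5a (both 0.994), Axl to Eif6 (0.990) and Ap2m1 (0.987), and Insr to Ttc4 (0.986) and Ifit2 (0.958). Met had the weakest matches, Brwd3 (0.925) and Fgfr1op2 (0.921). Among the receptors themselves, Fgfr1 and Pdgfra had an r of -0.99 and Epha2 and Pdgfra one of 0.97.

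Genes around these receptors were read from lists set by function. Of 29 genes listed as ligands of the receptors or of their families, 23 were tested. Over the 5 times 5 were higher in KO and 8 lower, against 30.4% and 26.4% of all genes. The median difference of the list was -0.016, against -0.0055 over all genes. Ereg, a ligand of Egfr, was higher by 0.58 ± 0.028 (SE; 1.49-fold, limma adjusted p = 2.11e-22). Tgfa, another ligand of Egfr, was lower, with a difference of -0.37 ± 0.022 (adjusted p = 6.47e-19), at a mean level of 8.20 in KO, near the floor, and 8.57 in WT. Fgf7, a fibroblast growth factor that acts mainly on epithelial cells, was lower, with a difference of -0.42 ± 0.031 (adjusted p = 5.12e-16). Pdgfa, Pdgfb, Pdgfc and Hgf were among the lower ligands.

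Of 22 adaptors and direct effectors, 21 were tested, and 12 were higher in KO and 2 lower, against 30.4% and 26.4% of all genes, with a median of 0.097. Grb2, which links receptors to Sos, was higher by 0.44 ± 0.029 (SE; 1.36-fold, limma adjusted p = 1.07e-17). Gab2, a docking protein, was higher by 0.37 (adjusted p = 4.95e-16), and Plcg1, a phospholipase that binds several of these receptors, by 0.35 (adjusted p = 2.57e-14). The members higher in KO also took in Src, Sos1, Ptpn11, Crk and Shc1, and the lower ones were Pik3cb and Pik3r1. After actinomycin D, 9 of the 21 fell in KO, against 14.6% of all genes, and 12 of the 21 fell in WT, against 17.8%, with Irs1, Gab1 and Nck1 in both counts.

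All 24 genes of receptor downregulation were tested, and 8 were higher in KO and 9 lower, against the same 30.4% and 26.4% of all genes. Adam10, a protease that sheds ectodomains, was lower, with a difference of -0.58 ± 0.022 (SE; 0.671-fold, limma adjusted p = 7.45e-26). Sh2b3, an adaptor that restrains signalling, differed by -0.45 (adjusted p = 1.26e-17), and Cblb, a ubiquitin ligase, by -0.26 (adjusted p = 8.04e-18). Of 45 other receptor tyrosine kinases, 28 were tested, 8 of them higher in KO and 5 lower, against those same shares of all genes. Ephb6 differed by -0.50 (adjusted p = 9.68e-19), Epha4 by -0.55 (adjusted p = 1.63e-16) and Ryk, a receptor for Wnt proteins, by -0.47 (adjusted p = 4.45e-19). Epha2 thus differed in direction from these Eph receptors, while Epha7 and Ephb4 were among those higher in KO. In these 4 lists limma called 0 slope differences, against 1.08% of all genes above 0 and 0.323% below. At an unadjusted p under 0.05 there were 3 of 23 ligands, 3 of 21 adaptors, 4 of 24 genes of downregulation and 3 of 28 other receptors. The share of all genes at that unadjusted level is not given here, so no excess can be read from these counts.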

How the data were processed

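RNA of 48 samples was hybridised to Affymetrix mouse genome arrays. Per the labels, data were obtained in GeneChip Operating Software (1.2.0.037). Log2 signals per probe set and array were deposited, and the log base was inferred from their range, up to 13.43. The authors' summary of probes and their normalisation are not given in the sources used here. The deposited scaling was kept. The number of arrays limits the precision.

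Of 45101 probe sets, 64 controls were left out, and the 27500 above the array median in at least 4 arrays were tested. They covered 13018 genes with a symbol of their own. Each gene was led by its probe set of highest mean. Models were fitted in limma 3.58.1 (R 4.3.3, data handling by data.table, version 1.17.8) to all 48 arrays without a block, using eBayes with trend and robust options. Group means gave the differences between KO and WT, and a line per genotype over hours gave the slopes. Tests were two-sided, with a Benjamini-Hochberg adjusted p of 0.05 over all probe sets tested as threshold. Errors are SE of the fit for differences and slopes and SD for group means. The fit was tested on simulated data in which arrays varied independently, so correlation within an experiment was not tested. Of simulated slope differences, limma called 63% at 0.15 log2 per hour and 99% at 0.5. Of simulated differences between the lines over the 5 times, it called 100% at 0.3 log2. Values were taken to be relative to the average of an array, which rests on the close array medians, since the scaling is not given. A slope above 0 then need not be new RNA.

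Gene coordinates and promoter windows come from RefSeq (GRCm38.p6), and windows were searched with Python 3.11.15. The series text says that each replicate number is an experiment with both lines side by side, so numbers pair the samples. The deviations of 23 pairs with 1 number and time had a median r of 0.17 (from -0.25 to 0.60), with 16 over 0.1. Named were all 10 receptors, the 2 genes most like each, Zfp36, and up to 3 genes per pathway list with the lowest adjusted p. Further list genes in the text were named after their values were seen. The members and lists were chosen with earlier results of these data known. Samples of serum-deprived cells are not analysed here.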

Additional observations from a re-analysis of the deposited data

Results flagged for a closer look

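Among the 100 groups of 4 or 5 arrays of the 10 receptors, 2 held an array far from the rest by Dixon's test, where chance gives about 5%. The lowest array of Egfr in KO at 90 min read 8.868 (replicate 4), with its nearest neighbour at 9.004 and the highest at 9.02. The lowest array of Ddr2 in WT at 120 min read 10.142 (replicate 1), with its nearest neighbour at 10.37. The slope of Epha2 after actinomycin D differed between KO and WT by 0.275207 log2 per hour (limma adjusted p = 0.00766), by a test of the difference itself.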

How the results depend on the processing

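Of 930 values for single receptors under other settings, 807 kept their direction and their side of the threshold, 33 changed sign without being called in either setting, 21 passed the threshold anew, 68 lost it and 1 reversed. The reversed result was Egfr at 120 min, which was -0.24 in experiments 4 and 5 alone. With all arrays it was 0.071 and was not called (limma adjusted p = 0.572). The number of receptors lower in KO at 0 min was 7 in experiments 4 and 5 against 3 as reported. In that set KO at 0 min is a single array, shared by all of these genes. Its spread is unknown, so no conclusion is drawn from this count. At 120 min the number of receptors lower in KO was 1 in experiments 1 to 3, 2 with the mean of a gene's probe sets, and 1 to 4 with a replicate left out. The count with a slope difference above 0 was 0 after quantile normalization and without the arrays at 0 min, and 0 to 1 with a replicate left out. Slopes above 0 in KO numbered 1 in experiments 4 and 5, with the mean of probe sets and with the replicate block, and 0 to 1 with a replicate left out. Slopes below 0 in KO numbered 2 after background subtraction and in experiments 4 and 5, 1 without the arrays at 0 min, and 2 to 4 with a replicate left out. Slopes above 0 in WT numbered 0 with centred medians, background subtraction, no filter, quantile normalization or no arrays at 0 min, 2 with the filter at the 75th percentile, the mean of probe sets or the replicate block, and 0 to 3 with a replicate left out. Slopes below 0 in WT numbered 3 without the arrays at 0 min. The causes were not tested. The replicate block, fitted for 0 min, 120 min, the 5 times together and the slopes, lost no call of a receptor there and added those given with the slopes, as well as Met at 120 min (0.19, adjusted p = 0.0327). The restriction to sets of experiments was chosen after the data were seen. Over all genes, calls of a slope difference ranged from 46 to 280 above 0 (141 as reported) and from 13 to 66 below 0 (42), slopes above 0 from 795 to 2628 in KO (2039) and from 667 to 2621 in WT (1951), and genes lower in KO at 120 min from 1240 to 2365 (1892). Signals near the floor of 8.13 limit what Insr and, in WT, Pdgfra can show.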
